A study of Arabidopsis thaliana with 24 samples.

Results

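The genes described here are XTH16, XTH18, XTH19, XTH20, XTH21, XTH26 and XTH33, which encode xyloglucan endotransglucosylase/hydrolases (XTHs) of Arabidopsis thaliana. They were taken by name, with earlier results of these data known, so that counts over them are descriptions only. Each is the only gene that the array annotation pairs with its probe set. Together they are 7 of the 13356 genes with such a probe set. The annotation pairs 10 of the 33 genes of the XTH family in this way, and the other 3 are XTH32, EXGT-A3 (XTH27) and XTH29. The probe sets are 257203_at for XTH16 (AT3G23730, chromosome 3), 253628_at for XTH18 (AT4G30280, chromosome 4), 253608_at for XTH19 (AT4G30290, chromosome 4), 248732_at for XTH20 (AT5G48070, chromosome 5), 266066_at for XTH21 (AT2G18800, chromosome 2), 253763_at for XTH26 (AT4G28850, chromosome 4) and 263207_at for XTH33 (AT1G10550, chromosome 1). XTH18 and XTH19 lie next to each other on chromosome 4, with XTH24 beside them as the next protein-coding gene.

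Seedlings were grown for 7 days in shaken liquid medium with 1.5% sucrose and 16 h of light and 8 h of dark, and were then given 5 µM IAA, the natural auxin indole-3-acetic acid, or ethanol as the control, for 2 h at 24 °C. There were 4 genotypes: nph4-1, a mutant of AUXIN RESPONSE FACTOR 7 (ARF7); arf19-1, a mutant of ARF19; the nph4-1 arf19-1 double mutant; and wild-type Columbia (Col), the ecotype of all 3 mutants. Each genotype had 3 IAA arrays and 3 control arrays, which makes 24 arrays in 8 groups, and each mutated gene is represented by 1 allele. The labels name whole seedlings and no organ, so that fewer cells of a type and less RNA per cell cannot be told apart in any value below.

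XTH enzymes act in the cell wall, where they cut chains of xyloglucan, the hemicellulose that coats and links cellulose microfibrils, and rejoin the cut end to another chain or to water. The reaction is tied to wall loosening and wall building in growing tissue, and auxin is a classical stimulus of such growth. ARF7 and ARF19 are transcriptional activators that Aux/IAA proteins hold inactive until auxin triggers the breakdown of those repressors. The study asked which auxin responses of the seedling need ARF7, ARF19 or both.

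All values are the authors' log2 signals, in which no value lies under 50 on the linear scale, or 5.64 on the log2 scale. A value at this floor says only that the signal was at or under it, and a change to or from the floor is a lower bound. Differences were tested with limma over 15757 probe sets, and a difference is called where the Benjamini-Hochberg adjusted p lies under 0.05. The labels do not say that replicates came from separate cultures, so the p-values measure the spread between these arrays, which may be technical. The array medians lay between 6.64 and 6.76 log2 units and 35.6% to 36.7% of probe sets were at the floor. Col control array 3 and nph4-1 IAA array 1 stood apart from their groups, with limma array weights of 0.19 and 0.14 where the highest was 7.9. The labels of Col control arrays 2 and 3 say that their tables replaced earlier ones that duplicated other arrays. No pair of arrays now shares more than 0.0214% of identical values above the floor. The probe sets of ARF7 and ARF19 themselves are not analysed here.

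IAA raised XTH18, XTH19 and XTH33 in arf19-1 and in Col, and of these only XTH18 passed the test in nph4-1. In the double mutant none of the 7 genes passed the limma test for a response. The same genotype had lower XTH18, XTH20, XTH26 and XTH33 than Col before any IAA was added. XTH16 fell with IAA in Col, and XTH21 was measured above the floor only in control seedlings of the 2 single mutants. In counts of called genes, nph4-1 had 1 higher and 1 lower of 7, beside 2.52% of all probe sets called in either direction, 1.72% higher and 0.8% lower. The count in arf19-1 was 3 higher and 1 lower, beside 10.1% of all probe sets, 4.89% higher and 5.22% lower. The lower gene in both was XTH21, which was tested only because of the control arrays on which it lay above the floor. With only the compared arrays in the limma model its calls were lost (adjusted p = 0.21 in nph4-1 and 0.064 in arf19-1). The double mutant had 0 of 7, beside 0.419%, with 1 gene at an unadjusted p under 0.05. Col had 3 higher and 1 lower, beside 12.9% in all, 6.33% higher and 6.52% lower. The median IAA difference of the 7 genes was 0.178 in nph4-1, 0.016 in arf19-1, 0.00 in the double mutant and 0.268 in Col, on the log2 scale, against medians over all probe sets of 0.004, -0.012, 0.00 and 0.00 in the same genotypes. The double-mutant median is the value of XTH21, which was at the floor on every array there, so that its response was not measured.

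**Figure D1:**
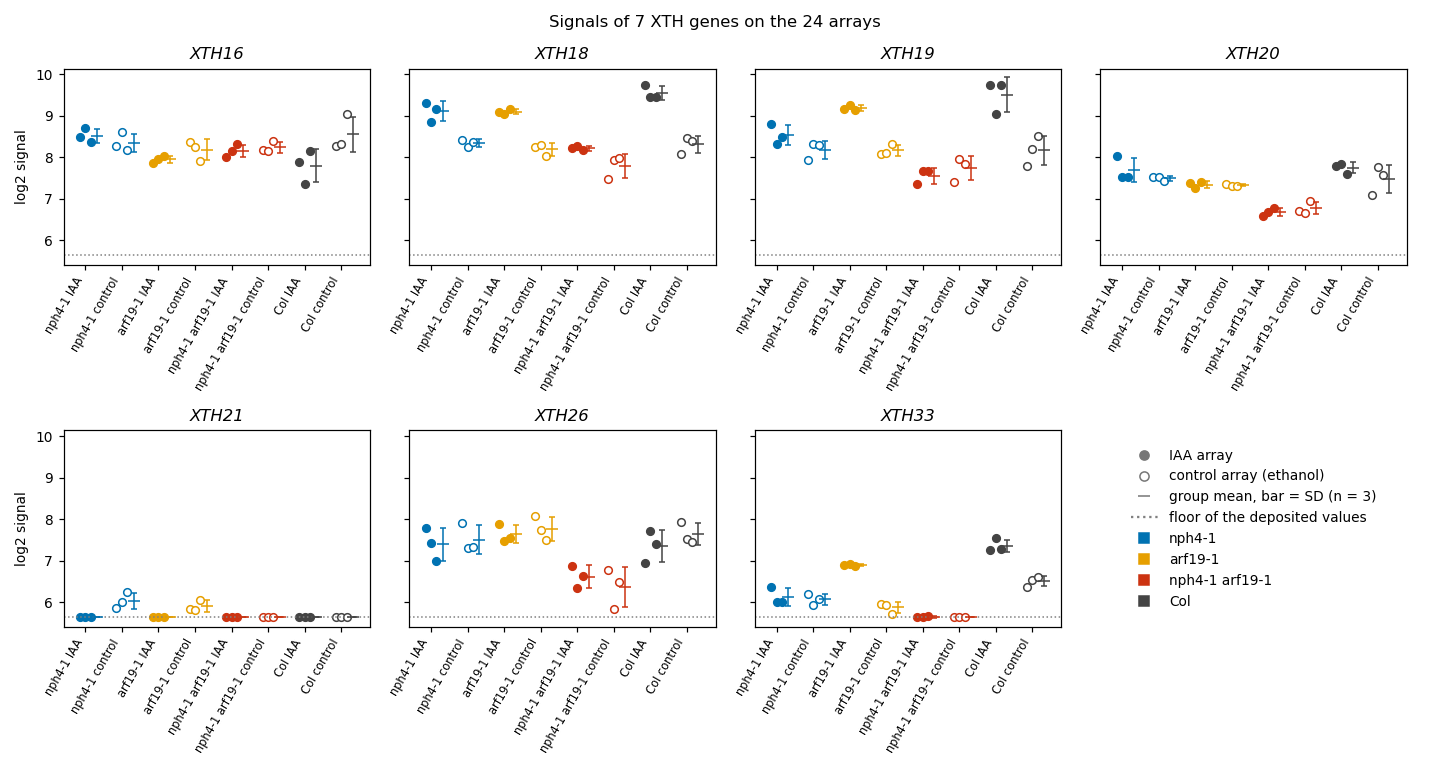
Log2 signal of the 7 XTH genes (1 panel each) on every array, by genotype; filled points are IAA arrays, open points control arrays, bars the mean ± SD of 3 arrays, and the dotted line the floor at 5.64. XTH18, XTH19 and XTH33 lie higher with IAA in arf19-1 and Col, XTH20 and XTH26 lie lowest in the double mutant, and XTH21 leaves the floor only on control arrays of nph4-1 and arf19-1.

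XTH19, a close relative of XTH18 and XTH20 that is known from roots and from the reunion of cut stems, was raised by IAA in arf19-1 and Col. Its log2 signals in nph4-1 were 8.81, 8.33 and 8.49 with IAA and 7.93, 8.31 and 8.30 in the controls. In arf19-1 they were 9.15, 9.27 and 9.14 with IAA and 8.09, 8.10 and 8.32 in the controls. In the double mutant they were 7.35, 7.67 and 7.67 with IAA and 7.41, 7.96 and 7.85 in the controls, and Col had 9.75, 9.04 and 9.74 with IAA and 7.80, 8.19 and 8.51 in the controls. The 3 IAA arrays were above the 3 controls in arf19-1, in Col and, by a narrow margin, in nph4-1, whereas in the double mutant they overlapped. The response was 2.02-fold in arf19-1 (log2 difference 1.02, SE 0.19, adjusted p = 0.00094) and 2.54-fold in Col (1.34, SE 0.19, adjusted p = 3.4e-05). In nph4-1 the log2 difference was 0.36 (SE 0.19, 95% interval -0.05 to 0.76, adjusted p = 0.48), and in the double mutant it was -0.18 (SE 0.19, 95% interval -0.58 to 0.23, adjusted p = 1).

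The responses of XTH19 were also compared with each other. The double-mutant response was lower than that of Col by a log2 difference of -1.52 (SE 0.28, adjusted p = 0.0012) and lower than that of arf19-1 by -1.19 (SE 0.28, adjusted p = 0.014). The nph4-1 response differed from that of Col by -0.98 (SE 0.28), which missed the threshold with an adjusted p of 0.06. It passed with array weights (-1.29, adjusted p = 0.0037), with the replicate number as a block (adjusted p = 0.046) and without any 1 of 5 single arrays that include both arrays that stand apart: without Col control array 3 the difference was -1.16 (adjusted p = 0.024), and without nph4-1 IAA array 1 it was -1.12 (adjusted p = 0.037). The arf19-1 response differed from that of Col by -0.33 (SE 0.28, 95% interval -0.90 to 0.25), which was not called. By mean level, Col with IAA (9.51 ± 0.41, SD, n = 3) and arf19-1 with IAA (9.19 ± 0.07) came first and overlapped, nph4-1 with IAA (8.54 ± 0.24) stood clear of both, and the 3 control groups of nph4-1, arf19-1 and Col overlapped around 8.17 to 8.18.

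XTH18, the chromosomal neighbour of XTH19 and likewise known from roots, was the only one of the 7 that was called as raised by IAA in nph4-1. Its log2 signals there were 9.31, 8.84 and 9.16 with IAA and 8.42, 8.25 and 8.37 in the controls. In arf19-1 they were 9.10, 9.05 and 9.15 with IAA and 8.26, 8.30 and 8.02 in the controls. Double-mutant values were 8.22, 8.28 and 8.17 with IAA and 7.47, 7.93 and 7.99 in the controls, and Col had 9.74, 9.45 and 9.45 with IAA and 8.07, 8.47 and 8.40 in the controls. The IAA arrays lay above the controls without overlap in every genotype, the double mutant included. XTH18 rose 1.69-fold in nph4-1 (log2 difference 0.76, SE 0.14, adjusted p = 0.0019), 1.88-fold in arf19-1 (0.91, SE 0.14, adjusted p = 7.1e-05) and 2.35-fold in Col (1.24, SE 0.14, adjusted p = 9.9e-07). In the double mutant the difference was 0.43 (SE 0.14, 95% interval 0.14 to 0.72), with an unadjusted p of 0.0053 and an adjusted p of 0.44.

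The XTH18 response of the double mutant was smaller than that of Col, by a log2 difference of -0.81 (SE 0.19, adjusted p = 0.016). That call was lost without any 1 of 4 arrays, with -0.69 without Col control array 1 (adjusted p = 0.052), -0.71 without Col IAA array 1 (0.058), -0.74 without double-mutant control array 2 (0.056) and -0.71 without double-mutant control array 3 (0.06). The nph4-1 response differed from that of Col by -0.48 (SE 0.19, adjusted p = 0.27) and the arf19-1 response by -0.33 (SE 0.19, adjusted p = 1). Neither passed the test, and their 95% intervals ran from -0.88 to -0.07 and from -0.73 to 0.08. XTH18 in nph4-1 without its IAA array 1, which stands apart, had a response of 0.66 (adjusted p = 0.015), and the call was lost when limma was given only the 6 nph4-1 arrays (adjusted p = 0.061).

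XTH33, an XTH that is associated with the plasma membrane, was likewise raised by IAA in arf19-1 and Col. Its log2 signals in nph4-1 were 6.37, 6.02 and 6.0 with IAA and 6.21, 5.94 and 6.07 in the controls. In arf19-1 they were 6.90, 6.92 and 6.87 with IAA and 5.97, 5.94 and 5.71 in the controls. The double mutant had 5.65, 5.64 and 5.67 with IAA and 5.64 on all 3 control arrays, and Col had 7.27, 7.54 and 7.28 with IAA and 6.37, 6.53 and 6.61 in the controls. The groups overlapped in nph4-1 and were well apart in arf19-1 and Col, while the double mutant lay at or just above the floor on all 6 arrays. IAA raised XTH33 2.03-fold in arf19-1 (log2 difference 1.02, SE 0.10, adjusted p = 3.5e-07) and 1.81-fold in Col (0.86, SE 0.10, adjusted p = 3.6e-06). The nph4-1 difference was 0.06 (SE 0.10, 95% interval -0.16 to 0.28, adjusted p = 0.88).

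The difference between responses was called for XTH33 in nph4-1 against Col, at -0.80 on the log2 scale (SE 0.15, adjusted p = 0.0024), and in the double mutant against Col, at -0.85 (SE 0.15, adjusted p = 0.00084). It was also called in the double mutant against arf19-1, at -1.01 (SE 0.15, adjusted p = 0.00014). With only the nph4-1 and Col arrays given to limma, the first of these was lost (adjusted p = 0.071), and with a floor of 100 the last was -0.25 (adjusted p = 0.065). The double-mutant values can only show a response that reaches above the floor. Without IAA, XTH33 was lower than in Col in every mutant: by -0.43 in nph4-1 (SE 0.10, adjusted p = 0.03), by -0.63 in arf19-1 (SE 0.10, adjusted p = 0.0047) and by -0.86 in the double mutant (SE 0.10, adjusted p = 1.3e-05), which was at least 1.82-fold since the mutant was at the floor. The arf19-1 response minus that of Col was 0.17 (SE 0.15, 95% interval -0.14 to 0.47, adjusted p = 1), with mean levels of 6.90 ± 0.03 in arf19-1 against 7.36 ± 0.15 in Col with IAA (SD, n = 3 each) and 5.88 ± 0.14 against 6.51 ± 0.12 without it. With the floor raised to 100, under which all control arrays of the 4 genotypes lie, that difference changed sign, to -0.47 (adjusted p = 0.0022), and the 3 differences without IAA became 0. The responses were then 0.25 in arf19-1 (adjusted p = 0.002) and 0.72 in Col (adjusted p = 1.5e-09). The call for nph4-1 without IAA was lost without Col control array 3 (-0.38, adjusted p = 0.13), without nph4-1 control array 2 (-0.37, 0.13) and without nph4-1 control array 3 (-0.43, 0.12), and that for arf19-1 without its control array 3 (-0.55, 0.053). With only the compared arrays given to limma, the calls for nph4-1 (adjusted p = 0.21) and arf19-1 (0.29) were lost. With no filter that for nph4-1 was lost as well (0.069).

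**Figure D2:**
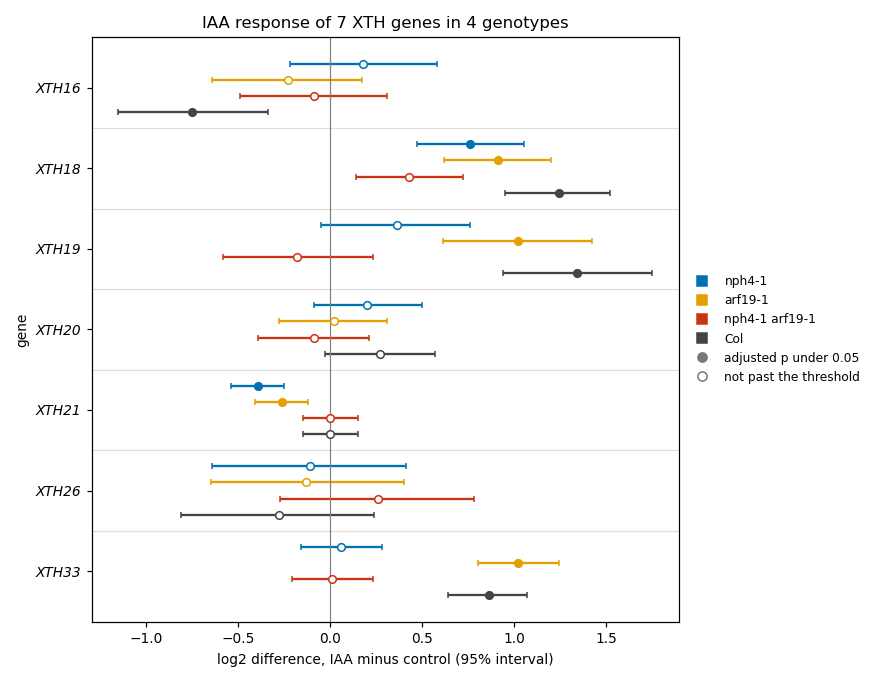
IAA response of the 7 XTH genes (IAA minus control, log2 difference) in nph4-1, arf19-1, the nph4-1 arf19-1 double mutant and Col, with 95% intervals; filled points have an adjusted p under 0.05. XTH18 is called in nph4-1, arf19-1 and Col, XTH19 and XTH33 in arf19-1 and Col, XTH21 in the 2 single mutants, XTH16 in Col, and no gene in the double mutant.

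Counted over the members, nph4-1 and Col responses differed for 2 of 7 genes, XTH33 and XTH21, both lower in nph4-1, beside 2.83% of all probe sets called, with 1.67% lower. XTH21 was at the floor on every array of Col and of the double mutant, so that its response was not measured in either. Its differences between responses hold only for the values as limited by the floor. The arf19-1 response differed from that of Col for 0 of 7 in limma, beside 0.26%, with 1 gene (XTH21) at an unadjusted p under 0.05. The double mutant differed from Col for 3 of 7, all lower, beside 4.06% in either direction and 2.58% lower. It differed from arf19-1 for 2 of 7, XTH19 and XTH33, both lower, beside 3.57% in either direction and 2.24% lower. Against nph4-1 it differed for 0 of 7 in limma, beside 0.298%, with 1 gene (XTH21) at an unadjusted p under 0.05. The test of whether the 2 mutations together changed the response by other than the sum of their single effects called 0 of 7, beside 0.178%, again with XTH21 alone at an unadjusted p under 0.05 (log2 value 0.66, SE 0.14, adjusted p = 0.075). These comparisons share arrays, since the Col arrays enter each comparison with Col.

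Arrays on which IAA and control values did not overlap were counted as well. In nph4-1 the IAA arrays were all above the controls for XTH18 and XTH19, beside 9.16% of all probe sets, and all below for XTH21, beside 5.98%. In arf19-1 they were above for XTH18, XTH19 and XTH33, beside 12.7%, and below for XTH21, beside 15.5%. For the double mutant this was so of XTH18 alone, beside 5.58%. In Col they were above for XTH18, XTH19 and XTH33, beside 10.3%, and below for XTH16, beside 10.3%. XTH21 was among the tested probe sets only because of the control arrays of nph4-1 and arf19-1, on which it lay above the floor.

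XTH16, which together with its close relative XTH15 is known from petioles that elongate in shade, was the one member that IAA lowered in Col. Its log2 signals in nph4-1 were 8.49, 8.70 and 8.37 with IAA and 8.27, 8.60 and 8.17 in the controls. In arf19-1 they were 7.86, 7.97 and 8.02 with IAA and 8.38, 8.26 and 7.90 in the controls. In the double mutant they were 8.00, 8.14 and 8.31 with IAA and 8.17, 8.14 and 8.40 in the controls, and Col had 7.89, 7.36 and 8.15 with IAA and 8.28, 8.33 and 9.04 in the controls. The groups overlapped in all 3 mutants, and in Col the gap between the closest arrays was small beside the spread within each group. XTH16 fell 1.68-fold in Col (log2 difference -0.75, SE 0.19, adjusted p = 0.011). That call rested on single arrays, with -0.50 without Col control array 3 (adjusted p = 0.09) and -0.53 without Col IAA array 2 (adjusted p = 0.098). It was also lost with array weights (-0.69, adjusted p = 0.061) and when limma was given only the 6 Col arrays (adjusted p = 0.16). The log2 difference was 0.18 in nph4-1, -0.23 in arf19-1 and -0.09 in the double mutant (SE 0.19 each), none of them called. With array weights the fall in arf19-1 became a call (-0.33, adjusted p = 0.018).

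The XTH16 response of nph4-1 minus that of Col was 0.93 (SE 0.27), with an adjusted p of 0.081. With a replicate block within genotype it was called (adjusted p = 0.0076), as was the double-mutant response minus that of Col (0.66, adjusted p = 0.043, against 0.28 with no block). It also passed the test without Col control array 1 (1.06, adjusted p = 0.047) or Col IAA array 3 (1.1, adjusted p = 0.032), and was 0.68 without Col control array 3 (adjusted p = 0.22). By mean level, all neighbouring groups of XTH16 overlapped, with 7.80 ± 0.40 in Col with IAA as the lowest and 8.55 ± 0.42 in Col controls as the highest (SD, n = 3 each).

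XTH32, another gene of the family, also fell with IAA in Col. Its log2 signals in nph4-1 were 8.83, 8.56 and 8.80 with IAA and 8.95, 8.70 and 8.66 in the controls, and in Col they were 8.52, 8.51 and 8.46 with IAA and 9.20, 9.09 and 9.40 in the controls. It fell with IAA in arf19-1 (log2 difference -0.50, adjusted p = 0.0041) and in Col (-0.74, SE 0.11, adjusted p = 6e-05), with -0.04 in nph4-1 (adjusted p = 0.93) and -0.26 in the double mutant (adjusted p = 0.95). Its response in nph4-1 exceeded that in Col by 0.69 (SE 0.16, adjusted p = 0.015), a call that was lost without nph4-1 control array 3 (0.64, adjusted p = 0.051), with array weights (0.61, 0.071) and with only the compared arrays in the model (0.069). Without IAA, XTH32 was lower in nph4-1 than in Col (-0.46, adjusted p = 0.032), which was lost with array weights (0.071), with no filter (0.058), with only the compared arrays (0.21) and without any 1 of Col control arrays 1 (-0.47, 0.071) and 3 (-0.37, 0.16) and nph4-1 control arrays 2 (-0.42, 0.11) and 3 (-0.40, 0.18). The difference of arf19-1 from Col was also -0.46 and was not called (adjusted p = 0.053). That of the double mutant was -0.06 (adjusted p = 0.76). EXGT-A3, which is known from the tracheary elements of leaf veins, had no called difference in any of the 13 comparisons, and XTH29 was at the floor on all 24 arrays.

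XTH26, which is known from roots and root hairs, and XTH20, the relative of XTH18 and XTH19 with a role in the reunion of cut stems, had a called difference between genotypes and no called response to IAA. For XTH26 the log2 signals in nph4-1 were 7.79, 7.42 and 6.99 with IAA and 7.92, 7.30 and 7.32 in the controls, and in arf19-1 they were 7.89, 7.48 and 7.56 with IAA and 8.07, 7.74 and 7.49 in the controls. Double-mutant values were 6.88, 6.34 and 6.64 with IAA and 6.78, 5.84 and 6.48 in the controls. Col had 6.95, 7.71 and 7.41 with IAA and 7.93, 7.53 and 7.46 in the controls. All 6 double-mutant arrays were below all 18 other arrays. Without IAA the double mutant was 2.42-fold lower than Col (log2 difference -1.28, SE 0.25, adjusted p = 0.0018), and this call held in every alternative fit run. The single mutants differed from Col by -0.13 in nph4-1 and 0.13 in arf19-1 (SE 0.25 each, 95% intervals -0.65 to 0.40 and -0.40 to 0.65).

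For XTH20 the signals in nph4-1 were 8.03, 7.53 and 7.53 with IAA and 7.53, 7.53 and 7.43 in the controls, and in arf19-1 they were 7.38, 7.25 and 7.40 with IAA and 7.35, 7.31 and 7.31 in the controls. The double mutant had 6.58, 6.69 and 6.79 with IAA and 6.72, 6.67 and 6.95 in the controls. Col had 7.80, 7.85 and 7.61 with IAA and 7.10, 7.77 and 7.58 in the controls. Again all 6 double-mutant arrays were below the other 18. Without IAA the double mutant was 1.63-fold lower than Col (log2 difference -0.70, SE 0.14, adjusted p = 0.0022), while nph4-1 differed by 0.01 and arf19-1 by -0.16 (SE 0.14 each), neither called. In a fit of the compared arrays alone the double-mutant call of XTH20 was lost (adjusted p = 0.072). The IAA difference of XTH20 lay between -0.09 in the double mutant and 0.27 in Col (SE 0.14 each, adjusted p = 1 and 0.28), and that of XTH26 between 0.26 in the double mutant and -0.28 in Col (SE 0.25 each, adjusted p = 1 and 0.58).

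A position of all 6 double-mutant arrays under all 18 other arrays was seen for 3 of the 7 genes, XTH20, XTH26 and XTH33, beside 0.762% of all probe sets. For XTH33 the margin was narrow, with 5.67 on a double-mutant IAA array and 5.71 on an arf19-1 control array. Its double-mutant values at the floor may lie lower than shown, so the size of the difference is not known. Few markers of root cells could be read beside these values. Of 12 root markers on the list only 2 had a probe set paired with 1 gene, EXPA7 and EXPA18, expansins of root hairs, and none of the 10 shoot markers had one. Both were above the floor in all groups. Their summed linear signal ranged from 318 to 424 with IAA and 354 to 505 in the controls of nph4-1, and from 525 to 585 with IAA and 455 to 574 in the controls of arf19-1. It ranged from 232 to 269 with IAA and 249 to 300 in the controls of the double mutant, and from 350 to 580 with IAA and 284 to 511 in the controls of Col. Without IAA, EXPA7 was lower in the double mutant than in Col by -0.64 (SE 0.19, adjusted p = 0.031), and EXPA18 differed by -0.63 (SE 0.23, adjusted p = 0.073), so that 1 of 2 markers passed the test. The call of EXPA7 was lost without Col control array 1 (-0.55, adjusted p = 0.11), Col control array 2 (-0.49, 0.091), double-mutant control array 2 (-0.64, 0.086) or double-mutant control array 3 (-0.53, 0.15), and with only the compared arrays in the model (0.14). The summed signals of control arrays overlapped between the double mutant and Col. Col control array 3, which stands apart, held the lowest Col control values of both markers (6.91 for EXPA7 and 7.35 for EXPA18). With IAA, the sums of the double mutant lay under those of every other genotype, and in the controls they lay under those of nph4-1 and arf19-1. The part of root or root-hair content in the results for XTH20 and XTH26 was not tested.

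**Figure D3:**
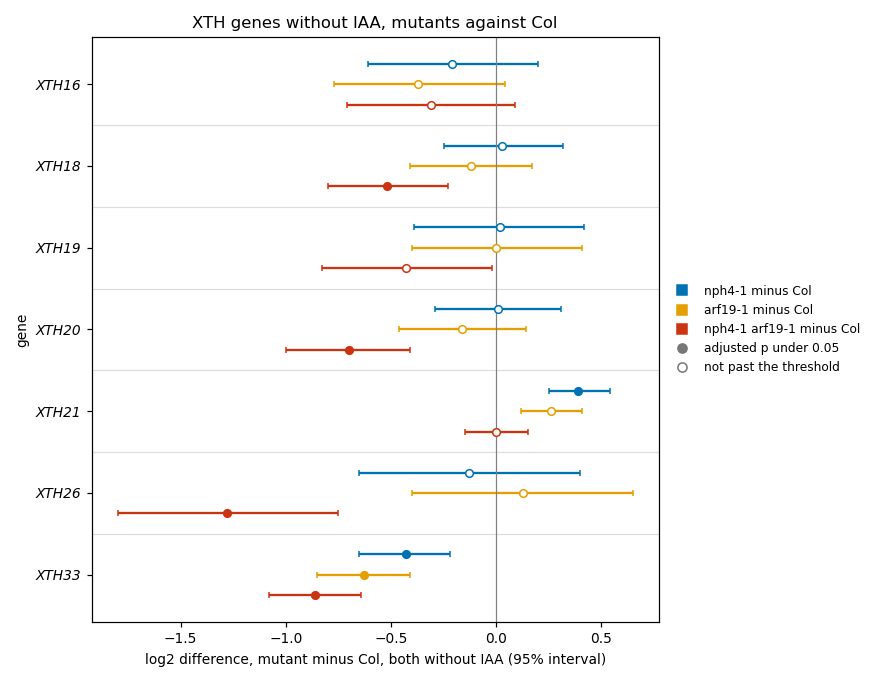
Difference of nph4-1, arf19-1 and the nph4-1 arf19-1 double mutant from Col in control seedlings (mutant minus Col, log2 difference) for the 7 XTH genes, with 95% intervals; filled points have an adjusted p under 0.05. The double mutant is lower for XTH18, XTH20, XTH26 and XTH33, the single mutants are lower for XTH33, and nph4-1 is higher for XTH21.

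In control seedlings, then, nph4-1 differed from Col for 2 of 7 genes, XTH21 higher and XTH33 lower, beside 2.28% of all probe sets called, 1.21% higher and 1.07% lower. XTH21 was tested only because it lay above the floor on control arrays of the single mutants, which include those of nph4-1. The arf19-1 mutant differed for 1 of 7, XTH33, which was lower, beside 0.819% in either direction and 0.482% lower. The double mutant was lower for 4 of 7 and higher for none, beside 13.3% called in either direction and 6.27% called as lower, and the median over the 7 genes was -0.518 against 0.00 over all probe sets. XTH18 was lower there by -0.52 (SE 0.14, adjusted p = 0.016), which was lost without Col control array 3 (-0.48, adjusted p = 0.063) or double-mutant control array 1 (-0.35, adjusted p = 0.086), with array weights (-0.36, adjusted p = 0.13) and with only the compared arrays in the model (adjusted p = 0.13). XTH19 differed by -0.43 (SE 0.19, adjusted p = 0.15) and XTH16 by -0.31 (SE 0.19, adjusted p = 0.3), neither called.

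XTH21, which is known for a role in primary root growth, was at the floor of 5.64 on 18 arrays and above it on the other 6. Those were the controls of nph4-1, with log2 signals of 5.86, 6.01 and 6.24, and the controls of arf19-1, with 5.84, 5.82 and 6.06. The IAA arrays of both single mutants, and all arrays of the double mutant and Col, were at the floor. This arrangement was found for 2 of 15757 probe sets, or 0.0127%, the other being that of AT3G59370. The arrangement was defined from the values of XTH21 itself, so the share is a description and no test of this gene. With IAA, XTH21 was at least 1.31-fold lower in nph4-1 (log2 difference -0.39, SE 0.07, adjusted p = 0.0017) and at least 1.20-fold lower in arf19-1 (-0.26, SE 0.07, adjusted p = 0.017). Without IAA, nph4-1 was at least 1.31-fold higher than Col (log2 difference 0.39, SE 0.07, adjusted p = 0.005), and arf19-1 was higher by 0.26 (SE 0.07), with an adjusted p of 0.079.

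All of these XTH21 values lie near the floor, and the probe set entered the test only through the 6 control arrays on which it is high. The SE also pools 6 groups at the floor, which have no measured spread. The responses of Col and of the double mutant were not measured, since both were at the floor with and without IAA. With only the compared arrays in the model the adjusted p was 0.21 for the response in nph4-1, 0.064 for that in arf19-1, 0.19 for nph4-1 against Col without IAA and 0.18 for the nph4-1 response minus that of Col, and none of these is a call. In arf19-1 the call of the response was lost without control array 3 (-0.19, adjusted p = 0.13) and without any 1 of the 3 IAA arrays (adjusted p = 0.052 to 0.054). The nph4-1 response minus that of Col was -0.39 (SE 0.10, adjusted p = 0.033), and that call was lost on leaving out any 1 of the 6 Col arrays or any 1 of 5 of the 6 nph4-1 arrays, with an adjusted p of up to 0.086, without nph4-1 control array 3 (-0.29). Without nph4-1 control array 1, the double-mutant response exceeded that of nph4-1 by 0.48 (adjusted p = 0.02). The non-additivity of XTH21 passed the test without the same array (0.74, adjusted p = 0.016) or without arf19-1 control array 2 (0.70, adjusted p = 0.047), and arf19-1 against Col without IAA passed it without nph4-1 control array 3 (0.26, adjusted p = 0.031).

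Other wall genes were read from lists. Of 11 genes of xyloglucan synthesis and breakdown, 1 had a probe set that the annotation pairs with 1 gene: CSLC04, a synthase of the glucan backbone of xyloglucan. It rose with IAA in arf19-1 (log2 difference 0.75, adjusted p = 0.00045) and in Col (0.57, adjusted p = 0.0052), with 0.27 in nph4-1 (adjusted p = 0.45) and 0.09 in the double mutant (adjusted p = 1), and without IAA it was lower in the double mutant than in Col by -0.62 (adjusted p = 0.0036). With only the compared arrays in the limma model, the call in Col (adjusted p = 0.12) and that without IAA (0.085) were lost. Of 13 measured expansins, which loosen walls without cutting xyloglucan, 0 rose and 1 fell with IAA in nph4-1 (2.52% of all probe sets called), 3 rose and 1 fell in arf19-1 (10.1%), none passed the limma test in the double mutant (0.419%), and 3 rose and 1 fell in Col (12.9%). EXPA4 rose by 1.34 in arf19-1 (adjusted p = 7.3e-05) and by 1.51 in Col (adjusted p = 1.4e-05), and EXPB1 fell in nph4-1 (-1.07, adjusted p = 6.6e-06), in arf19-1 (-1.33, adjusted p = 6.2e-08) and in Col (-0.77, adjusted p = 9.8e-05). These falls of EXPB1 are bounds, since 2, 3 and 2 of the 3 IAA arrays of nph4-1, arf19-1 and Col were at the floor. With a floor of 100 they were -0.14 in nph4-1 (adjusted p = 0.41), -0.33 in arf19-1 (adjusted p = 0.00098) and -0.06 in Col (adjusted p = 0.68), so that the calls in nph4-1 and Col were lost. EXPA20 rose by 0.59 in arf19-1 (adjusted p = 0.0017) and by 0.96 in Col (adjusted p = 4.5e-06). EXPA8 rose by 1.37 in arf19-1 (adjusted p = 0.0013) and by 0.89 in Col (adjusted p = 0.033). The EXPA8 call in Col was lost without Col control array 2 (0.51, adjusted p = 0.19) or Col IAA array 3 (0.65, adjusted p = 0.18). It was also lost with no filter (adjusted p = 0.071), with array weights (0.068) and with only the compared arrays in the model (0.2). Without IAA, 0 expansins were higher and 2 lower than in Col in nph4-1 (2.28% of all probe sets called), 1 was higher and 0 lower in arf19-1 (0.819%), and 4 were higher and 4 lower in the double mutant (13.3%), where EXPA8 was lower by -2.48 (adjusted p = 5.2e-06). The median IAA difference over the 13 expansins was 0.121 in nph4-1, 0.322 in arf19-1, 0.021 in the double mutant and 0.143 in Col, beside the medians over all probe sets given above.

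Across the 24 arrays, XTH18, XTH19 and XTH33 varied together, with a Pearson r of 0.88 for XTH18 and XTH19, 0.87 for XTH19 and XTH33, and 0.82 for XTH18 and XTH33. After each group's mean was subtracted, r was 0.52, -0.06 and 0.43 for the same pairs, so that XTH19 and XTH33 varied together between groups and hardly within them. XTH20 also varied with these genes, with an r of 0.71 for XTH18, 0.69 for XTH19 and 0.67 for XTH33. After subtraction of the group means these were 0.60, 0.36 and 0.61. These correlations are descriptions over arrays that share treatments and genotypes. Among 7839 other genes the closest profile to XTH19 was that of AT5G12940 (r = 0.94), followed by AT3G14560 (0.94) and AT5G12050 (0.92). For XTH33 they were AT5G49170 (0.94), AT3G18560 (0.94) and AT5G01210 (0.92), and for XTH18 they were AT5G40540, AT2G41380 and AT3G19200 (0.92 each). XTH26 was most like AT1G08340 (0.94), AT5G42250 (0.91) and AT4G25790 (0.88), and XTH20 was most like AT5G01870 (0.91), AT1G50060 (0.91) and AT5G66590 (0.86). XTH16 was most like AT1G21090 (0.86), AT5G45950 (0.86) and AT1G31920 (0.85), and XTH21 had no profile closer than r = 0.75, for AT2G43150, AT4G36980 and AT1G23720.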

How the data were processed

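Total RNA of 24 seedling samples was hybridised to oligonucleotide arrays with 22810 probe sets. The values are log2 signals as deposited by the authors, with a floor of 50 (5.64 on the log2 scale) seen in the values; the summarisation and scaling methods are not given in the sources used here. From them, the 64 control probe sets and 6989 probe sets at the floor on every array were left out, and 15757 were tested with limma 3.58.1 in R 4.3.3: lmFit with a mean for each of the 8 groups (16 residual degrees of freedom), eBayes with trend and robust, two-sided, with Benjamini-Hochberg adjustment within each of 13 contrasts. Genes were named where the array annotation pairs a probe set with 1 gene (13513 probe sets; 503 had several and 8794 were not listed), and 13436 of these were found in RefSeq, assembly TAIR10.1, used for names and gene order only. Named genes were the members, the other XTH genes, called genes of the fixed lists and the 3 genes most correlated with each member among those above the floor on at least 12 arrays. Members and lists were chosen with earlier results of these data known. The number of arrays limits the precision. Same-numbered IAA and control arrays deviated together with correlations of 0.32 to 0.42 in nph4-1 and 0.18 to 0.50 in the double mutant, over 0.1 in every pair. The correlations ran from -0.10 to 0.47 in Col and from 0.00 to 0.29 in arf19-1. In the fit reported, the number was not taken as a pairing in any genotype. Alternatives were the filter, the floor, the normalization, the variance model, array weights, the replicate number as a block, the arrays in the fit and each array left out; a block within genotype was added after the data were seen.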

Additional observations from a re-analysis of the deposited data

Results flagged for a closer look

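The 8 differences between responses that passed the limma test among the XTH genes are collected here, each in log2 units. Relative to the response of Col, that of nph4-1 was lower by a difference of -0.39 for XTH21 and -0.80 for XTH33, and higher by 0.69 for XTH32. The double-mutant response relative to that of Col was -0.81 for XTH18, -1.52 for XTH19 and -0.85 for XTH33. Relative to arf19-1, the double-mutant response was -1.19 for XTH19 and -1.01 for XTH33. Among alternative fits, the call of XTH21 was lost in 13 of 32. That of XTH18 was lost in 5 of 34 and that of XTH32 in 3 of 34. For XTH33, the calls of nph4-1 against Col and of the double mutant against arf19-1 were each lost in 1 of 33. The other calls held in every alternative fit that tested the gene. The XTH21 value comes from nph4-1 control arrays near the floor and nph4-1 IAA arrays at it. Col was at the floor for XTH21 on every array, so that its response there was not measured. XTH33 in the double mutant was at or just above the floor on every array, so that a response under the floor could not be seen there.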

How the results depend on the processing

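Of 91 pairs of a member and a contrast, 24 were called. Over 34 alternative fits, 10 of the 24 kept their call in every fit that tested the gene, 14 lost it in at least 1, and 8 uncalled pairs gained one. The 10 were the IAA responses of XTH18, XTH19 and XTH33 in arf19-1 and in Col, XTH26 in the double mutant against Col without IAA, XTH19 and XTH33 in the double-mutant response minus that of Col, and XTH19 in the double-mutant response minus that of arf19-1. The 1 reversal was XTH33 in the arf19-1 response minus that of Col, which was -0.47 with a floor of 100 and 0.17 in the fit reported. With only probe sets of mean log2 signal of at least 7, which drops XTH21 and XTH33, the number of called members was 1 for the response in nph4-1 (2 in the fit reported), 2 for that in arf19-1 (4), 0 for nph4-1 against Col without IAA (2), 0 for arf19-1 against Col without IAA (1), 0 for the nph4-1 response minus that of Col (2) and 1 for the double-mutant response minus that of arf19-1 (2). With a floor of 100 these counts were 1, 3, 0, 0, 1 and 1, and 1 for the arf19-1 response minus that of Col (0). With only the arrays compared they were 0 for the response in nph4-1, 0, 0 and 2 (4) for nph4-1, arf19-1 and the double mutant against Col without IAA, and 0 for the nph4-1 response minus that of Col. With no filter, nph4-1 against Col without IAA had 1, and with array weights the double-mutant response minus that of nph4-1 had 1 (0); the cause was not tested. Leaving out 1 array gave 2 to 2 called members for the response in nph4-1, 3 to 4 in arf19-1, 0 to 0 in the double mutant and 3 to 4 in Col, and for control seedlings 1 to 2 in nph4-1, 0 to 2 in arf19-1 and 3 to 4 in the double mutant. For responses minus that of Col it gave 1 to 3 in nph4-1, 0 to 0 in arf19-1 and 2 to 3 in the double mutant, for the double-mutant response 0 to 1 against nph4-1 and 2 to 2 against arf19-1, and 0 to 1 for non-additivity. With the replicate block, XTH19 in the nph4-1 response minus that of Col became a call (adjusted p = 0.046), and with a replicate block within genotype so did XTH16 there (0.0076) and in the double-mutant response minus that of Col (0.043); no other member call changed, and arf19-1 against Col without IAA had 201 called probe sets in place of 129. Over all probe sets, the counts with the mean of at least 7 were 216 for the response in nph4-1 (397 in the fit reported), 983 in arf19-1 (1592), 34 in the double mutant (66) and 1236 in Col (2026), and 219 (446), 7 (41) and 334 (640) for the responses of nph4-1, arf19-1 and the double mutant minus that of Col, 20 (47) and 309 (562) for the double-mutant response minus those of nph4-1 and arf19-1, and 10 (28) for non-additivity. With only the arrays compared they were 153 in nph4-1 and 893 in Col, 23 (359), 1 (129) and 759 (2096) for nph4-1, arf19-1 and the double mutant against Col without IAA, 214 and 19 for the nph4-1 and arf19-1 responses minus that of Col and 864 for the double-mutant response minus that of arf19-1. With no filter they were 221 for nph4-1 and 79 for arf19-1 against Col without IAA. With array weights they were 838 in nph4-1, 5231 in arf19-1, 218 in the double mutant, 211 for arf19-1 against Col without IAA, 123 and 1955 for the double-mutant response minus those of nph4-1 and arf19-1, and 43 for non-additivity. Leaving out 1 array gave 258 to 445 called probe sets for the response in nph4-1 and 33 to 85 for that in the double mutant, and 111 to 1353, 28 to 924 and 1169 to 3581 for nph4-1, arf19-1 and the double mutant against Col without IAA. The floor limits XTH21, XTH33 and EXPB1.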
